A study of Mus musculus with 19 samples.

Results

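Chromatin accessibility was examined at Neurog1, Neurog2, Neurod1 and Neurod4, 4 genes that encode proneural transcription factors of the basic helix-loop-helix (bHLH) family. A peak was taken as belonging to a gene when its centre lay in the gene body or within 30 kb of either end in the GRCm38.p6 RefSeq annotation. This gave 18 of the 90154 peaks, with 5 at Neurog1, 5 at Neurog2, 3 at Neurod1 and 5 at Neurod4. The rule used positions and no measured value.

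ATAC-seq, in which a transposase inserts sequencing adapters into accessible DNA, was performed on cultured cells of C57BL/6J mice. Neural stem cells of the ventricular zone were taken at embryonic day 14 and grown with EGF as floating neurospheres (NSPs), and they were then plated and differentiated towards astrocytes in medium with serum. Of the 19 libraries, 3 came from NSPs, 4 from cells after 1 week without TNF, and 3 each from cells kept for 24 h or 72 h either without or with TNF. TNF, an inflammatory cytokine, was given at 50 ng/ml, and strain and embryonic age were the same in all 6 groups. The labels do not tie libraries to animals or cultures, so p-values measure the spread between these libraries, which may be technical. The names of the 10 libraries at 72 h and 1 week carry the tag Luc and those of the 9 NSP and 24 h libraries do not, so the tag and the group cannot be told apart in any comparison across that line. Of the 18 peaks, 0 were among the 212 peaks of the series with at most 3 reads in the tagged libraries and at least 20 in the untagged ones.

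Proneural factors bind E-box DNA as dimers with E proteins and drive neural progenitors out of division and into neuronal differentiation. Neurog1 and Neurog2 commit progenitors of the embryonic nervous system to a neuronal fate and hold back the astrocyte programme, and they switch on Neurod1 and Neurod4, which carry the differentiation of the young neuron forward. In dividing progenitors the Notch effectors Hes1 and Hes5 repress proneural genes, and Id proteins take E proteins away from them.

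Values are normalised reads per 500 bp peak, as deposited, and differences are log2 differences of value + 1, tested with limma-trend over the 88919 peaks that passed a filter on low counts, with Benjamini-Hochberg adjusted p under 0.05 as a call. All 18 peaks passed the filter. Reads in peaks ranged from 9640256 to 39349111 per library and were highest in the NSPs, with 28636739 or more. The reads behind a value at the 18 peaks ranged from 2 to 1137 per library. Each library came from a bulk culture, so fewer cells with an open region and less opening in each cell cannot be told apart.

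Promoter sequences of the 3 genes whose upstream window was covered by a peak almost throughout are given to show how unlike these regions are in base composition. Each is the 250 bases before the RefSeq start (GRCm38.p6), read 5′ to 3′ on the minus strand of the chromosome, with E-boxes (CANNTG) in capitals. The Neurog1 window lies at chr13:56252181-56252430, that of Neurod1 at chr2:79456637-79456886 and that of Neurod4 at chr10:130280255-130280504.
Neurog1: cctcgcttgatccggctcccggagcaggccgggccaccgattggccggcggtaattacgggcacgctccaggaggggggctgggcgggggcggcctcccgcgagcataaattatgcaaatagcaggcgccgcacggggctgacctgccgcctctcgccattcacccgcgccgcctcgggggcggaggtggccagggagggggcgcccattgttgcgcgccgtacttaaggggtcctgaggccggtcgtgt
Neurod1: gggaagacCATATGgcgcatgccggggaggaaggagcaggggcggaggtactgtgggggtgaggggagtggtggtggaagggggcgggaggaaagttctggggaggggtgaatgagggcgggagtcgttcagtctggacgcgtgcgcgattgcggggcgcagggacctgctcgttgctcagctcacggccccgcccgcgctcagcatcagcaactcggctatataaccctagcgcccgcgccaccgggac
Neurod4: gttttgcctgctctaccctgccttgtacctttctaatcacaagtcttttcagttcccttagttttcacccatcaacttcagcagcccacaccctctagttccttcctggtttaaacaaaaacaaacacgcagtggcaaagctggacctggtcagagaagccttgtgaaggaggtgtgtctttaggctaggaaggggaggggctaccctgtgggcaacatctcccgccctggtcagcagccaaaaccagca
With 50 bases after the start included, the GC content was 69.3% for Neurog1, 66.7% for Neurod1, 58% for Neurog2 and 52.3% for Neurod4, against a median of 52.7% over 32851 RefSeq promoters. The observed to expected ratio of CpG was 0.891, 0.837, 0.57 and 0.197 in the same order, and the median over all promoters was 0.384. An E-box stood in 1 place each in the 300 bases of Neurog1 and Neurod1 and in 0 in those of Neurog2 and Neurod4, while 72.3% of all promoters held at least 1. The Neurod1 E-box, 242 bp before the start, reads CATATG, a form that 3.91% of promoters held and that NEUROG and NEUROD proteins are known to bind. The class C site of HES repressors, CACGCG on either strand, was found in the Neurod1 promoter and in 9.27% of all promoters, and the N-box CACNAG was found in those of Neurog2, Neurod1 and Neurod4 and in 42.5% of all. The other words searched on both strands were CAGATG and CAGCTG, held by 17.2% and 16.3% of all promoters, TGGGAA and TATAAA, held by 25.6% and 13.6%, and CCAAT, held by 37.4%. Of these, only CCAAT was present, once, in the Neurog1 promoter. Of the words searched, 3 are themselves forms of the general E-box. The matches describe the letters and are not evidence of binding.

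Accessibility fell during differentiation at Neurog2, Neurod1 and Neurod4 and changed least at Neurog1. Of the 18 peaks, 13 were lower at 1 week than in NSPs and 0 were higher. The 13 comprised all 5 peaks of Neurog2, all 5 of Neurod4, 2 of 3 of Neurod1 and 1 of 5 of Neurog1. Over all peaks tested, 33.6% were lower and 33.7% higher in this comparison. The median log2 difference was -0.86 over the 18 peaks and 0.01 over all peaks. The lowest was -3.32, at a peak beyond Neurod4, and the highest, 0.37, was not called.

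Some peaks were called at a single step of the time course and others at several. The peaks 8.4 kb and 4.7 kb beyond the 3′ end of Neurod4 were called at every step. At 24 h against NSPs, 5 peaks were lower and 1 was higher, with 23% and 24.2% of all peaks. At 72 h against NSPs, 11 were lower and 0 higher, with 30.9% and 28.3% of all peaks. Between 24 h and 72 h, 3 peaks fell, all at Neurod4, and 0 rose, with 14.3% and 12% of all peaks. The 5 lower at 24 h (27.8% of the 18) and the 3 lower between 24 h and 72 h (16.7%) were near the shares of all peaks. Between 72 h and 1 week, 7 fell, 4 of them at Neurod4, and 2 rose, with 16.2% and 22.5% of all peaks. The medians of the 18 peaks were -0.31, -0.75, -0.29 and -0.12 in these comparisons, against -0.07, -0.06, -0.01 and 0.02 over all peaks. The comparisons with NSPs share the 3 NSP libraries and are not independent of each other.

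Gene ends behaved unlike the other peaks in the series, and 5 of the 18 peaks have their centre within 1 kb of a gene end. Of these 5, 2 were lower at 24 h, 4 at 72 h and 4 at 1 week against NSPs, where 39.3%, 53.7% and 27.6% of all 13342 peaks at gene ends were lower. Between 72 h and 1 week 1 of the 5 rose and 1 fell, with 54% and 6.12% of all peaks at gene ends. Of the 13 peaks away from gene ends, 9 were lower at 1 week than in NSPs, where 34.6% of all such peaks were lower.

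The scaling of the libraries moved some of these counts. With every library scaled to the same total in peaks, the median of all peaks went from -0.06 to 0.21 at 72 h against NSPs, from -0.07 to 0.11 at 24 h against NSPs and from 0.02 to -0.31 at 1 week against 72 h. With that scaling 5 of the 18 peaks were lower and 1 higher at 72 h against NSPs, with 20.8% and 36.7% of all peaks. At 24 h against NSPs 4 were lower and 2 higher, with 13.9% and 29.4% of all peaks. At 1 week against 72 h 8 were lower and 0 higher, with 33.8% and 8.96% of all peaks, so that the share of lower calls rose among all peaks too. At 24 h against NSPs, loess offsets gave 5 lower and 2 higher (19.9% and 24.5% of all peaks), DESeq2 gave 6 lower and 0 higher (24% and 25%), and a fit of the groups compared alone gave 4 lower and 0 higher (17.8% and 19.6%). At 1 week against NSPs the same total gave 13 lower and 0 higher, as in the deposited scaling, with 35.9% and 31.1% of all peaks. Leaving out 72 h replicate 3 took the count at 1 week against 72 h from 9 to 4, of which 3 were lower and 1 higher, with 12.1% and 19.7% of all peaks.

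**Figure D1:**
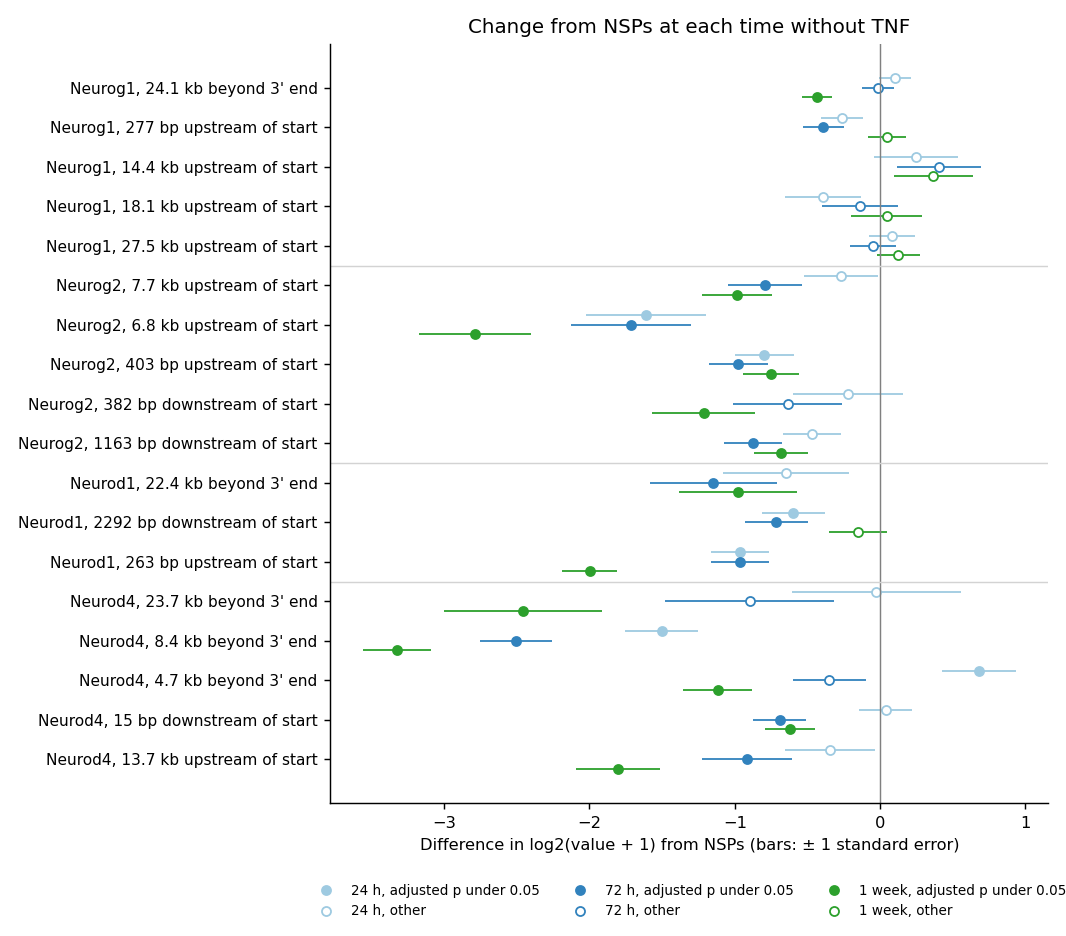
Log2 difference from NSPs (x axis, log2 of value + 1) at 24 h, 72 h and 1 week without TNF for each of the 18 peaks (y axis), named by gene and distance, with bars of 1 standard error and filled points for adjusted p under 0.05. The Neurog1 peaks lie between -0.43 and 0.41 at all 3 times, whereas all Neurog2 and Neurod4 points at 1 week lie at -0.62 or lower.

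Neurog1, at chr13:56250478-56252180 on the minus strand, was the locus with the least change. Its promoter peak, chr13:56252207-56252707, is centred 277 bp upstream of the start. It held 389, 299.6 and 253 normalised reads in the NSP libraries, 248, 249 and 276 at 24 h and 254, 288 and 289.7 at 24 h with TNF. It held 248, 222 and 236 at 72 h, 191, 244 and 211 at 72 h with TNF and 312, 294, 339 and 333 at 1 week. The order of the means ran from 1 week (319.6 ± 20.7, SD, n = 4) over NSPs (314 ± 69.1, n = 3), 24 h with TNF (277 ± 20.2) and 24 h (258 ± 15.7) to 72 h (236 ± 12.9) and 72 h with TNF (215 ± 26.5), and each group overlapped the next. The 4 libraries of 1 week all lay above the 3 of 72 h, a rise of 0.44 ± 0.13 (SE), adjusted p = 0.0102. The 72 h libraries all lay below those of NSPs, a difference of -0.39 ± 0.14 (SE), adjusted p = 0.019. At 1 week the promoter was back in the range of NSPs, with a difference of 0.05, adjusted p = 0.774. Over all gene end peaks the median was -0.39 at 72 h against NSPs and 0.39 from 72 h to 1 week. At 1 week against NSPs it was 0.01, so the dip and return here were near the typical shift of gene ends.

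Both calls at the Neurog1 promoter were fragile. The fall at 72 h was lost without NSP replicate 1 (-0.23, adjusted p = 0.153) and without 72 h replicate 2 (-0.35, adjusted p = 0.0654). It was also lost with equal totals (-0.12, adjusted p = 0.462), TMM scaling (-0.31, adjusted p = 0.0566) and loess offsets (-0.27, adjusted p = 0.107), and in a fit of those groups alone (-0.39, adjusted p = 0.0825). The rise at 1 week was lost with equal totals (0.10, adjusted p = 0.569), loess offsets (0.22, adjusted p = 0.227) and edgeR (0.33, adjusted p = 0.0596). At 24 h against NSPs the difference of -0.26, adjusted p = 0.13 became a call without NSP replicate 3 (-0.41, adjusted p = 0.0298).

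The strongest peak of the locus was not the promoter. It lies 24.1 kb beyond the 3′ end of Neurog1, at chr13:56226141-56226641, within the lncRNA gene 4930550C17Rik, whose own end is 6.5 kb from Neurog1. Its mean over all libraries was 461, at percentile 89.3 of all peaks. It held 510.0, 457 and 448 in NSPs, 525, 541 and 457 at 24 h and 587, 552 and 571 at 24 h with TNF. It held 429.8, 498 and 474 at 72 h, 413, 426 and 468 at 72 h with TNF and 342, 339, 352 and 361 at 1 week. The 1 week libraries were the lowest of all 19, and did not overlap any other group. The fall was -0.42 ± 0.10 (SE), adjusted p = 0.00198 from 72 h and -0.43 ± 0.10 (SE), adjusted p = 0.000498 from NSPs, and both calls were kept under all 29 alternatives. At 24 h all 3 TNF libraries lay above the 3 without TNF, but the difference of 0.17, adjusted p = 0.401 was not called. With equal totals and with loess offsets the peak was called higher at 24 h than in NSPs, by 0.29 and 0.28, where the deposited scaling gave 0.10, adjusted p = 0.455.

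The 3 other Neurog1 peaks lie upstream, on the side with no other annotated gene within 30 kb. The farthest, 27.5 kb upstream at chr13:56279398-56279898, was the steadiest of the 18. It held 138, 163 and 144 in NSPs, 195, 143 and 139 at 24 h and 158, 176 and 159 at 24 h with TNF, then 158, 134 and 139 at 72 h, 139, 140.4 and 139 at 72 h with TNF and 178, 180.0, 147 and 145 at 1 week. Its highest and lowest group means differed 1.18-fold, and 0 of its 8 comparisons were called. The peak 14.4 kb upstream, chr13:56266362-56266862, ranged from 33.2 to 75.1 over the 19 libraries and was called in 0 comparisons. It became a call at 1 week against NSPs without 1 week replicate 3 (0.60, adjusted p = 0.0459), from 0.37, adjusted p = 0.237 with all libraries.

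The peak 18.1 kb upstream of Neurog1, chr13:56270062-56270562, was lower with TNF at 24 h. It held 82.0, 60.5 and 43.1 at 24 h and 21.2, 42.0 and 34.3 at 24 h with TNF, so that the highest TNF library lay just below the lowest untreated one. The other libraries held 80.6, 70.2 and 86.4 in NSPs, 73.3, 77.8 and 63.7 at 72 h, 62.6, 65.0 and 44.4 at 72 h with TNF and 71.4, 90.4, 90.2 and 75.1 at 1 week. The difference with TNF at 24 h was -0.91 ± 0.26 (SE), adjusted p = 0.0214, a 1.90-fold lower mean. At 72 h it was -0.33, adjusted p = 0.469. The call at 24 h was lost without 24 h replicate 1 (-0.69, adjusted p = 0.162), without 24 h replicate 2 (-0.91, adjusted p = 0.062) and without 24 h with TNF replicate 1 (-0.64, adjusted p = 0.168). The values rested on 24 to 39 reads per library with TNF and 35 to 72 without. Time without TNF gave no call at this peak.

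Neurog2, at chr3:127632733-127635636 on the plus strand, lost accessibility at all 5 peaks by 1 week. The RefSeq start used for the promoter window lies 403 bp inside the annotated gene. The largest fall was at a peak 6.8 kb upstream, chr3:127626040-127626540, which overlaps the lncRNA gene Gm40147. It held 88.8, 97.5 and 103 in NSPs, 17.1, 44.3 and 38.2 at 24 h and 29.2, 39.9 and 47.8 at 24 h with TNF. It held 12.9, 45.5 and 39.5 at 72 h, 38.4, 37.0 and 30.0 at 72 h with TNF and 16.8, 17.1, 15.4 and 6.43 at 1 week. The NSP libraries stood above all the others, and the 1 week libraries were at the bottom beside 24 h replicate 1 and 72 h replicate 1. The fall from NSPs was -1.61 ± 0.41 (SE), adjusted p = 0.00196, at 24 h, -1.71 ± 0.41 (SE), adjusted p = 0.000765, at 72 h, and -2.79 ± 0.39 (SE), adjusted p = 2.8e-07, at 1 week, a 6.92-fold lower mean. The means of 24 h and 72 h differed by -0.10, adjusted p = 0.886.

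From 72 h to 1 week the same Neurog2 peak fell, with a difference of -1.08, adjusted p = 0.0282. This last step was lost without 72 h replicate 2 (-0.75, adjusted p = 0.187), without 72 h replicate 3 (-0.85, adjusted p = 0.142) and without 1 week replicate 4 (-0.77, adjusted p = 0.117), and it was -1.62, adjusted p = 0.0023, without 72 h replicate 1. It was also lost with loess offsets, in a fit of those groups alone and with the title numbers as a replicate block. The 1 week values rested on 6 to 22 reads per library.

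At the Neurog2 promoter the fall came early and then stopped. The peak chr3:127632483-127632983, centred 403 bp before the start used here, held 212, 154 and 169 in NSPs, 88.8, 106 and 109.6 at 24 h and 77.8, 83.0 and 89.3 at 24 h with TNF. It held 104, 92.1 and 73.9 at 72 h, 87.6, 54.7 and 76.8 at 72 h with TNF and 125, 91.2, 114 and 91.1 at 1 week. Every NSP library was above every other library. The mean went from 178 ± 30.3 (SD, n = 3) in NSPs to 102 ± 11.2 at 24 h, a difference of -0.80 ± 0.20 (SE), adjusted p = 0.00197. It was -0.98, adjusted p = 0.000161 at 72 h and -0.75, adjusted p = 0.00102 at 1 week, all kept under all 29 alternatives. The 5 groups after NSPs ran from 1 week and 24 h to 72 h, 24 h with TNF and 72 h with TNF, each overlapping the next.

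The Neurog2 gene body held a pair of peaks. The stronger, chr3:127634049-127634549, 1163 bp downstream of the start, held 197, 252 and 198 in NSPs, 166, 150.5 and 147 at 24 h and 164, 185 and 126 at 24 h with TNF, then 121, 81.3 and 159 at 72 h, 156, 155 and 112 at 72 h with TNF and 138, 122, 134 and 138 at 1 week. Again all NSP libraries were the highest. The fall was -0.88 ± 0.20 (SE), adjusted p = 0.000394 at 72 h and -0.68 ± 0.19 (SE), adjusted p = 0.00187 at 1 week. At 24 h it missed the threshold, with -0.47, adjusted p = 0.0513, and it passed with DESeq2 (adjusted p = 0.0467), with a pseudocount of 8 (adjusted p = 0.0447), without NSP replicate 1 (-0.53, adjusted p = 0.0283), without 24 h with TNF replicate 3 (-0.47, adjusted p = 0.0469), without 72 h replicate 2 (-0.47, adjusted p = 0.0298), without 72 h replicate 3 (-0.47, adjusted p = 0.037) and without 72 h with TNF replicate 3 (-0.47, adjusted p = 0.047). Without 72 h replicate 3 the step from 24 h to 72 h was also called, at -0.63, adjusted p = 0.0285, where all libraries gave -0.41, adjusted p = 0.131.

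The weaker Neurog2 peak in the gene, chr3:127633268-127633768, 382 bp downstream of the start, held 77.7, 98.0 and 62.5 in NSPs, 72.9, 57.5 and 71.4 at 24 h and 76.0, 51.7 and 63.3 at 24 h with TNF. It held 57.9, 59.8 and 35.7 at 72 h, 52.7, 42.9 and 60.0 at 72 h with TNF and 65.2, 36.6, 11 and 44.0 at 1 week. Neighbouring groups overlapped throughout, and 1 library at 1 week, replicate 3, was far below the rest with 5 reads. At 1 week against NSPs the difference was -1.22 ± 0.35 (SE), adjusted p = 0.0034, and -0.71, adjusted p = 0.0192, without that library. At 72 h against NSPs it was -0.64, adjusted p = 0.148, and it was called, with adjusted p = 0.0388, without 1 week replicate 3. At 1 week against 72 h it was -0.58, adjusted p = 0.2, and it was called with equal totals (-0.91, adjusted p = 0.044) and without 1 week replicate 1 (-0.90, adjusted p = 0.0453).

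The last Neurog2 peak lies 7.7 kb upstream, chr3:127625218-127625718, within 1 kb of the end of Gm40147. It held 102, 111 and 93.7 in NSPs, 76.3, 81.1 and 97.3 at 24 h and 73.4, 93.7 and 57.1 at 24 h with TNF. It held 50.2, 77.8 and 51.0 at 72 h, 72.4, 39.9 and 70.8 at 72 h with TNF and 45.0, 54.6, 66.0 and 41.8 at 1 week. The NSP libraries lay above those of 72 h and of 1 week and overlapped those of 24 h. The difference from NSPs was -0.27, adjusted p = 0.407, at 24 h, -0.79 ± 0.26 (SE), adjusted p = 0.00924, at 72 h, and -0.98 ± 0.24 (SE), adjusted p = 0.00067, at 1 week. The call at 72 h was lost with equal totals. This peak and its neighbour 6.8 kb upstream lie less than 1 kb apart, and at 24 h their means were 84.9 ± 11 and 33.2 ± 14.3 (SD, n = 3), from 102 ± 8.75 and 96.4 ± 7.16 in NSPs.

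**Figure D2:**
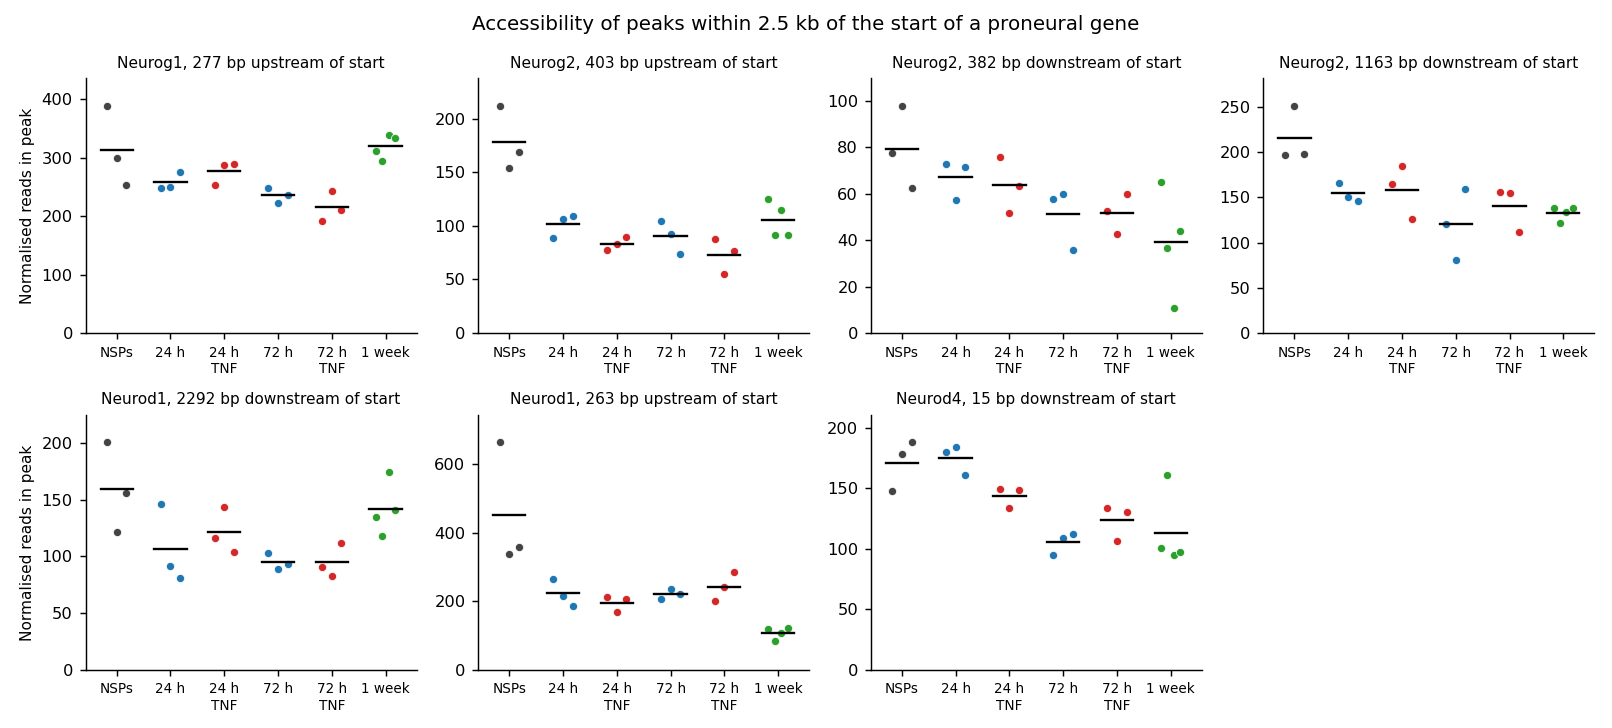
Normalised reads (y axis, from 0) in the 7 peaks within 2.5 kb of a start, with 1 point per library, a line at the group mean and the 6 groups on the x axis. The Neurod1 promoter goes from 453 in NSPs to 108 at 1 week, while the Neurog1 promoter is at 314 and 320 in the same groups.

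Neurod1, at chr2:79452637-79456636 on the minus strand, lost accessibility at its promoter in a pair of steps. The promoter peak, chr2:79456649-79457149, centred 263 bp upstream, includes the CATATG word printed above. It held 664, 339 and 357 in NSPs, 266, 217 and 187 at 24 h and 211, 168 and 208 at 24 h with TNF. It held 206, 234 and 222 at 72 h, 200.3, 242 and 284 at 72 h with TNF and 119, 84.2, 108 and 122 at 1 week. All NSP libraries were above all others, with NSP replicate 1 far above the other two, and all 1 week libraries were below all others. The mean fell from 453 ± 183 (SD, n = 3) in NSPs to 223 ± 40.0 at 24 h, a difference of -0.96 ± 0.20 (SE), adjusted p = 0.000229. It stayed at 221 ± 14.3 at 72 h, where the difference from 24 h was 0.00, adjusted p = 0.989, and fell again to 108 ± 17.2 (n = 4) at 1 week, a difference of -1.03 ± 0.19 (SE), adjusted p = 8.8e-05. At 1 week the mean was 4.19-fold lower than in NSPs (-2.0 ± 0.19 (SE), adjusted p = 1.4e-10). All 4 calls were kept under all 29 alternatives, among them without NSP replicate 1.

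The Neurod1 peak inside the gene dipped and came back. It lies at chr2:79454094-79454594, 2292 bp downstream of the start, and held 200.4, 122 and 155 in NSPs, 146, 91.5 and 81.3 at 24 h and 116, 143 and 104 at 24 h with TNF. It held 103, 88.5 and 93.0 at 72 h, 90.3, 82.8 and 112 at 72 h with TNF and 135, 118, 174 and 140.5 at 1 week. The 72 h libraries lay below all those of NSPs and of 1 week, while NSPs and 1 week overlapped. The difference from NSPs was -0.60 ± 0.21 (SE), adjusted p = 0.0234, at 24 h, -0.71 ± 0.21 (SE), adjusted p = 0.00545, at 72 h, and -0.15, adjusted p = 0.52, at 1 week. From 72 h to 1 week it was 0.56 ± 0.20 (SE), adjusted p = 0.0272. The fall at 24 h was lost without NSP replicate 1 (-0.42, adjusted p = 0.11), without 24 h replicate 2 (-0.51, adjusted p = 0.0853) and without 24 h replicate 3 (-0.43, adjusted p = 0.146). The rise at 1 week was lost without 72 h replicate 2 (0.52, adjusted p = 0.0899), without 72 h replicate 3 (0.55, adjusted p = 0.071) and without 1 week replicate 3 (0.46, adjusted p = 0.0879), and also with equal totals, TMM scaling, edgeR and DESeq2. With equal totals the falls at 24 h and at 72 h were lost too, and that at 24 h also in a fit of those groups alone.

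The third Neurod1 peak was weak. It lies 22.4 kb beyond the 3′ end, chr2:79429983-79430483, towards Cerkl, the nearest other gene, whose end is 23.6 kb from Neurod1. The peak is thus far nearer to Cerkl, which ends at chr2:79428988, than to Neurod1. It held 36.2, 72.5 and 73.1 in NSPs, 20.5, 54.6 and 43.1 at 24 h and 19.5, 18.3 and 55.0 at 24 h with TNF. It held 30.9, 19.1 and 28.0 at 72 h, 18.8, 65.0 and 27.6 at 72 h with TNF and 37.0, 25.7, 24.2 and 30.0 at 1 week. NSP replicate 1 lay within the range of the later groups, and the TNF groups each had 1 library well above the other two. The difference from NSPs was -1.15 ± 0.44 (SE), adjusted p = 0.0248, at 72 h, and -0.98 ± 0.41 (SE), adjusted p = 0.0357, at 1 week. The call at 72 h was lost without NSP replicate 2 (-0.99, adjusted p = 0.0904), without NSP replicate 3 (-0.98, adjusted p = 0.0889) and without 72 h replicate 2 (-0.95, adjusted p = 0.103), and with equal totals. The call at 1 week was lost without NSP replicate 2 (-0.81, adjusted p = 0.129), without NSP replicate 3 (-0.81, adjusted p = 0.127), without 1 week replicate 2 (-0.92, adjusted p = 0.0701), without 1 week replicate 3 (-0.90, adjusted p = 0.0735) and without 1 week replicate 4 (-1.0, adjusted p = 0.0511), and with loess offsets.

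Neurod4, at chr10:130268152-130280254 on the minus strand, held the largest change of the 18 peaks. It was at a peak 8.4 kb beyond the 3′ end, chr10:130259458-130259958, with no other annotated gene within 30 kb of Neurod4. The peak held 159, 261 and 319 in NSPs, 100.2, 79.7 and 71.4 at 24 h and 85.8, 92.7 and 102 at 24 h with TNF. It held 32.2, 40.7 and 52.3 at 72 h, 45.6, 47.3 and 44.4 at 72 h with TNF and 26.5, 19.5, 24.2 and 21.4 at 1 week. The groups without TNF did not overlap at any step, and at 24 h and 72 h the TNF libraries overlapped the untreated ones. The mean went from 247 ± 80.8 (SD, n = 3) to 83.8 ± 14.8, 41.7 ± 10.1 and 22.9 ± 3.06 (n = 4). The log2 difference was -1.50 ± 0.25 (SE), adjusted p = 1.3e-05, from NSPs to 24 h, -1.0 ± 0.25 (SE), adjusted p = 0.00375, from 24 h to 72 h, and -0.82 ± 0.23 (SE), adjusted p = 0.00667, from 72 h to 1 week. Against NSPs it was -2.51 ± 0.25 (SE), adjusted p = 1.2e-09, at 72 h, and -3.32 ± 0.23 (SE), adjusted p = 3.0e-13, at 1 week, a 10.8-fold lower mean. The step from 72 h to 1 week was lost without 72 h replicate 3 (-0.65, adjusted p = 0.058), and the other 4 calls were kept under all 29 alternatives.

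A second peak beyond Neurod4, 4.7 kb from the 3′ end, responded to TNF. It lies at chr10:130263170-130263670 and held 261, 208 and 209 at 24 h and 92.0, 127 and 95.5 at 24 h with TNF. At 72 h it held 104, 109 and 116 without TNF and 76.0, 85.7 and 63.6 with TNF. It held 259.9, 91.9 and 114 in NSPs and 66.1, 64.7, 77 and 50.4 at 1 week. At both times every TNF library was below every untreated one. With TNF the mean at 24 h was 2.16-fold lower, 105 ± 19.4 against 226 ± 30.0 (SD, n = 3 each), a difference of -1.11 ± 0.25 (SE), adjusted p = 0.00372, kept under all 29 alternatives. At 72 h the difference was -0.55 ± 0.25 (SE), adjusted p = 0.17, not a call, though it was called with adjusted p = 0.0377 without NSP replicate 1 and in a fit of the 72 h groups alone. The TNF effect at 72 h minus that at 24 h was 0.56 ± 0.36 (SE), adjusted p = 0.751.

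Without TNF this Neurod4 peak was highest at 24 h. Its 24 h libraries overlapped NSP replicate 1, the highest of the NSPs, and all lay above the 72 h libraries. The rise from NSPs to 24 h was 0.68 ± 0.25 (SE), adjusted p = 0.0276, and it was the only one of the 18 peaks called higher in that comparison in the deposited scaling. It was 1.13, adjusted p = 2.14e-05, without NSP replicate 1, and was lost without NSP replicate 2 (0.38, adjusted p = 0.242), without NSP replicate 3 (0.54, adjusted p = 0.119) and without 24 h replicate 1 (0.57, adjusted p = 0.112), with DESeq2 and in a fit of those groups alone. It then fell, with a difference of -1.03 ± 0.25 (SE), adjusted p = 0.00327, from 24 h to 72 h and of -0.77 ± 0.24 (SE), adjusted p = 0.011, from 72 h to 1 week, and both were kept under all 29 alternatives. Against NSPs the difference was -0.35, adjusted p = 0.239, at 72 h, which became a call without NSP replicate 2 (-0.65, adjusted p = 0.0328), and -1.12, adjusted p = 0.000135, at 1 week, which was -0.67, adjusted p = 0.00314, without NSP replicate 1.

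At the Neurod4 promoter the fall came between 24 h and 72 h. The peak chr10:130279989-130280489, centred 15 bp into the gene, held 148, 178 and 188 in NSPs, 179.9, 184 and 161 at 24 h and 149, 134 and 149 at 24 h with TNF. It held 95.2, 109 and 112 at 72 h, 134, 106 and 131 at 72 h with TNF and 101, 161, 94.6 and 97.6 at 1 week. NSPs and 24 h overlapped, the 72 h libraries lay below both, and 1 week replicate 2 stood above the other 3 of its group. The difference was 0.04, adjusted p = 0.884, from NSPs to 24 h, and -0.73 ± 0.18 (SE), adjusted p = 0.00397, from 24 h to 72 h. Against NSPs it was -0.69 ± 0.18 (SE), adjusted p = 0.00189, at 72 h, a call lost with equal totals, and -0.62 ± 0.17 (SE), adjusted p = 0.00225, at 1 week. The 24 h libraries with TNF all lay below those without, but the difference of -0.28, adjusted p = 0.404 was not called.

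The other Neurod4 peaks were low. The one 13.7 kb upstream, chr10:130293689-130294189, had means of 85.1 ± 24.3 in NSPs (SD, n = 3), 65.3 ± 7.55 at 24 h, 44.4 ± 11.1 at 72 h and 24.5 ± 9.55 at 1 week (n = 4). It was lower than in NSPs at 72 h (-0.92, adjusted p = 0.0123) and at 1 week (-1.81, adjusted p = 3.1e-06), and lower at 1 week than at 72 h (-0.89, adjusted p = 0.0166). The call at 72 h was lost without NSP replicate 1 (-0.70, adjusted p = 0.0683) and without 72 h replicate 1 (-0.71, adjusted p = 0.0811), and with equal totals. The last one was lost without 72 h replicate 2 (-0.73, adjusted p = 0.0903), without 72 h replicate 3 (-0.83, adjusted p = 0.0592) and without 1 week replicate 3 (-0.63, adjusted p = 0.0698), and with loess offsets. The one 23.7 kb beyond the 3′ end, chr10:130244228-130244728, was the weakest of the 18, at percentile 1.87 of all peaks, and held 2 to 5 reads per library at 1 week. Its means were 26.6 ± 12.9 in NSPs and 3.82 ± 1.99 at 1 week, a difference of -2.46, adjusted p = 0.000226, lost with loess offsets. It was -1.56, adjusted p = 0.0237, from 72 h to 1 week, which was lost without 72 h replicate 1 (-1.47, adjusted p = 0.0759), without 72 h replicate 3 (-1.18, adjusted p = 0.147), without 1 week replicate 1 (-1.45, adjusted p = 0.053) and without 1 week replicate 4 (-1.38, adjusted p = 0.0609), and with loess offsets.

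**Figure D3:**
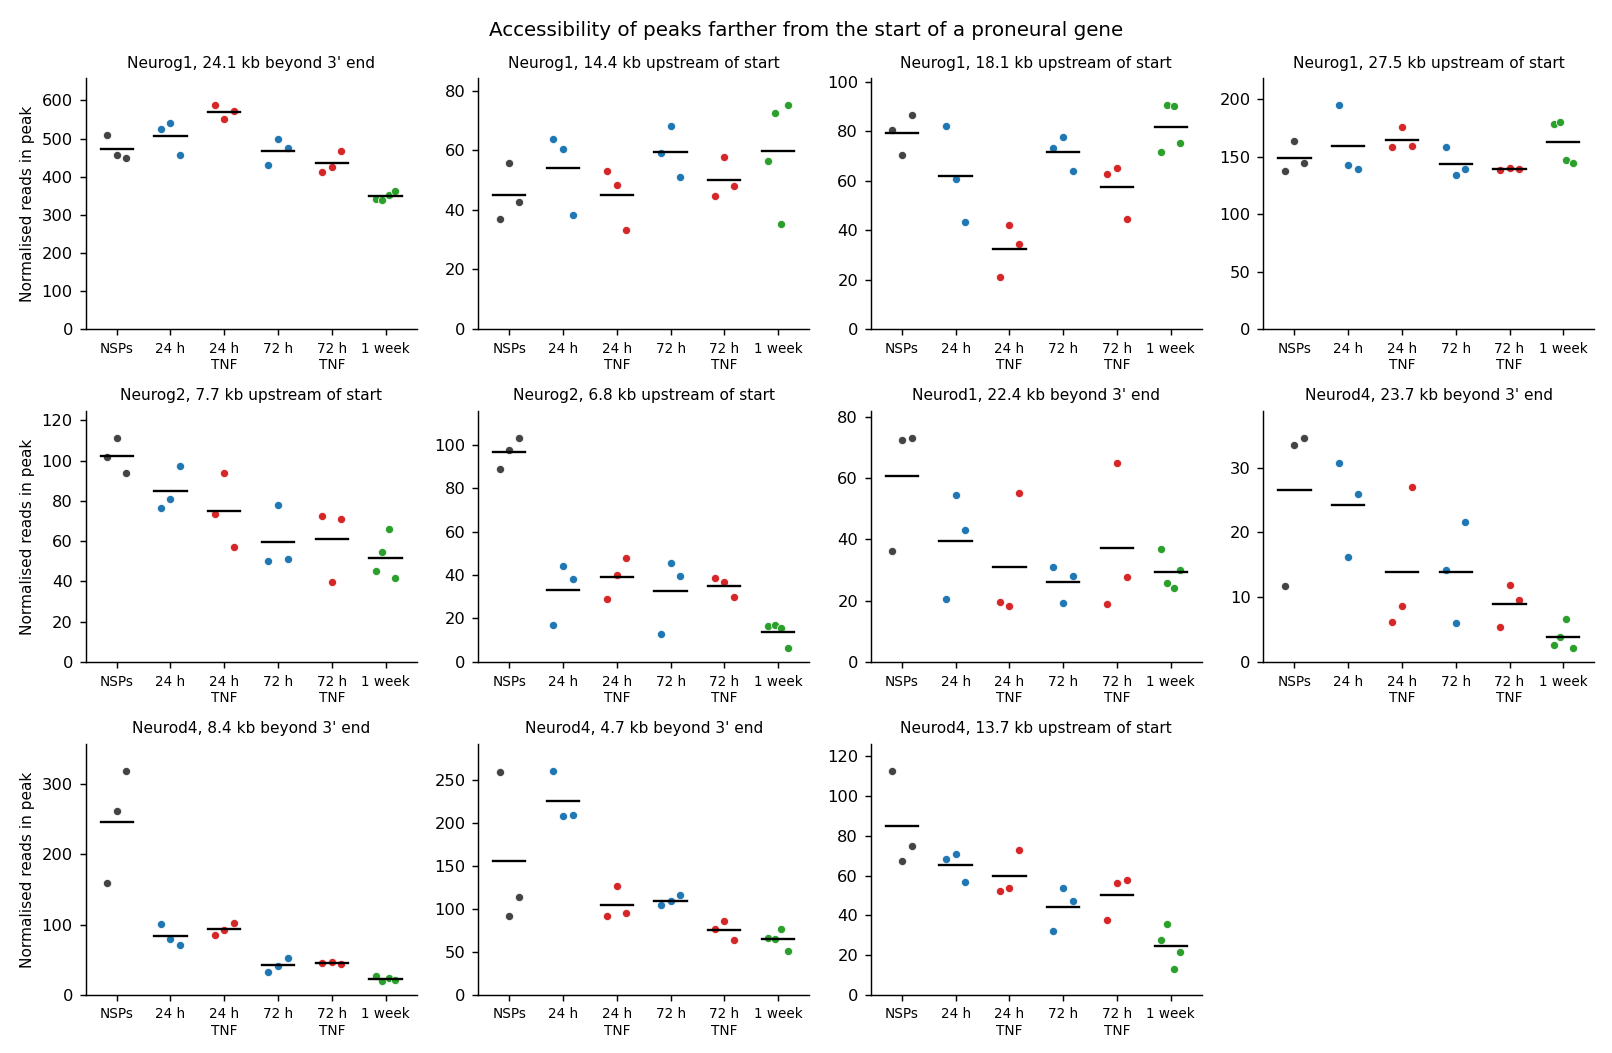
Normalised reads (y axis, from 0) in the 11 peaks farther from a start, with 1 point per library, a line at the group mean and the 6 groups on the x axis. The peak 8.4 kb beyond Neurod4 declines at each step without TNF, and the peak 4.7 kb beyond Neurod4 is lower with TNF at 24 h (105 against 226).

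TNF changed few of the 18 peaks. At 24 h, 2 were lower with TNF, the peak 4.7 kb beyond Neurod4 and the one 18.1 kb upstream of Neurog1, and 0 were higher, with 3.53% and 7.06% of all peaks. The count was 1 without 24 h replicate 1 (1.72% of all peaks lower, 5.05% higher). It was also 1 without 24 h replicate 2 (2.1% and 5.28%) and without 24 h with TNF replicate 1 (2.21% and 5.4%). At 72 h, 0 were called in limma-trend and 1 had an unadjusted p under 0.05, with 5.55% of all peaks lower and 6.24% higher. There, 0 were called by edgeR (6.09% of all peaks lower, 5.85% higher) and by DESeq2 (6.1% and 6.93%). Without NSP replicate 1 the count was 1 (8.31% and 9.17%). The difference between the TNF effects at 72 h and at 24 h was called at 0 of the 18 peaks, at 0 also by unadjusted p, and at 0.00112% of all peaks. The medians of the TNF differences were -0.16 at 24 h and 0.00 at 72 h over the 18 peaks, and -0.03 and 0.03 over all peaks. No gene end peak of the 4 genes was called with TNF at either time. At the Neurod1 promoter the difference was -0.18 ± 0.20 (SE), adjusted p = 0.675, at 24 h and 0.12 ± 0.20 (SE), adjusted p = 0.759, at 72 h, and at the Neurog2 peak 6.8 kb upstream it was 0.30 ± 0.41 (SE), adjusted p = 0.752, at 24 h and 0.28 ± 0.41 (SE), adjusted p = 0.732, at 72 h.

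**Figure D4:**
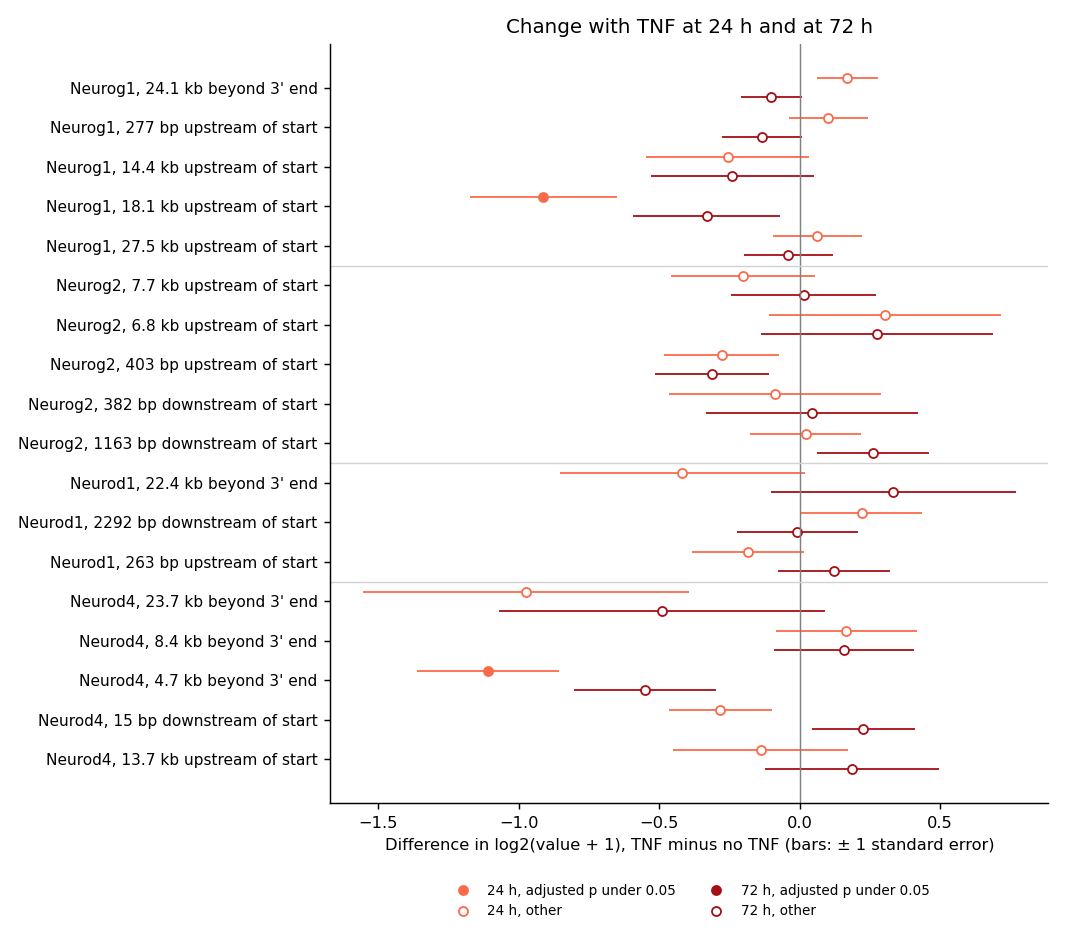
Log2 difference with TNF minus without (x axis, log2 of value + 1) at 24 h and at 72 h for each of the 18 peaks (y axis), with bars of 1 standard error and filled points for adjusted p under 0.05. The points of 24 h at -1.11 (Neurod4, 4.7 kb beyond the 3′ end) and -0.91 (Neurog1, 18.1 kb upstream) are the filled ones.

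The other genes of the pathway were read with the same rule for peaks, by role. Related neural bHLH factors (Atoh1, Atoh7, Neurog3, Neurod2, Neurod6, Nhlh1, Nhlh2 and Bhlhe22) had 28 peaks, of which 8 were lower and 8 higher at 1 week than in NSPs, with a median of 0.09. E protein partners (Tcf3, Tcf4 and Tcf12) had 50, with 20 lower and 10 higher and a median of -0.23. Inhibitors (Hes1, Hes5, Hey1 and Id1 to Id4) had 50, with 21 lower and 15 higher and a median of -0.18. Targets of proneural factors (Dll1, Dll3, Hes6, Eomes, Insm1, Btg2, Rnd2, Gadd45g, Dcx and Tbr1) had 70 tested, with 37 lower and 13 higher and a median of -0.45. No test of a list against the other peaks was made. Over all peaks 33.6% were lower and 33.7% higher, with a median of 0.01. At gene ends the related factors had 3 peaks, of Atoh1, Atoh7 and Neurod6. At 1 week against NSPs 3 of these were lower and 0 higher, with a median of -0.85. Of all gene end peaks 27.6% were lower and 26.5% higher there. With TNF at 24 h, 1 peak of the related factors was higher and 1 lower, 4 and 0 of the E proteins, 4 and 0 of the inhibitors, and 4 and 2 of the targets, against 7.06% and 3.53% of all peaks. At 72 h the higher and lower peaks numbered 1 and 2, 2 and 1, 3 and 3, and 3 and 3 in the same order, with 6.24% and 5.55% of all peaks.

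The targets had 14 gene end peaks, of which 9 were lower and 4 higher at 1 week than in NSPs, in the deposited scaling and with the same NSP libraries. Of all gene end peaks 27.6% were lower and 26.5% higher. Dll1, a Notch ligand gene that Neurog2 switches on, had 1141 ± 390 normalised reads (SD, n = 3) in NSPs and 301.1 ± 35.8 (n = 4) at 1 week, a log2 difference of -1.87, adjusted p = 3.63e-12. The values of Dll3, its relative, were 267 ± 18.8 and 59.6 ± 7.80, with -2.15, adjusted p = 4.54e-11. Insm1, a zinc finger gene of young neurons and endocrine cells, had 173 ± 13.7 and 35.1 ± 3.18, with -2.27, adjusted p = 1.09e-10. Eomes, which marks intermediate neuronal progenitors, went from 161 ± 13.5 to 57.5 ± 5.26, with -1.47, adjusted p = 2.38e-08. Gadd45g, a growth arrest gene, was higher instead, at 1398 ± 45.7 against 282 ± 72.4, with 2.34, adjusted p = 8.94e-17. Rnd2 was higher too, at 608 ± 42.9 against 468 ± 139, with 0.41, adjusted p = 0.00735.

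The inhibitors had 10 gene end peaks, and at 1 week 6 of them were lower and 2 higher than in NSPs, with 27.6% and 26.5% of all gene end peaks. Hes5, the Notch effector, went from 1976 ± 208 in NSPs to 93.0 ± 20.0 at 1 week, with -4.41, adjusted p = 1.37e-20. Hes1 was lower by less, 678 ± 80.8 against 486 ± 51.6, with -0.48, adjusted p = 0.000963. Id1, an inhibitor of E protein dimers, was higher, 396 ± 54.2 against 506 ± 40.9, with 0.36, adjusted p = 0.00583. Neurod6, a relative of Neurod1, had 76.8 ± 12.7 and 22.1 ± 15.4, with -1.99, adjusted p = 1.2e-05.

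The genes whose gene end peak was most like that of a member over the 19 libraries were found among 13084 protein-coding genes by Pearson's r of log2 values. They were Kif5b (r = 0.86), Dgcr2 and Nek3 for Neurog1, Fa2h (0.89), Rbm24 and Ppp2r5c for Neurog2, Lmo1 (0.93), Atp6v1e2 and Lrrtm2 for Neurod1, and Hcn2 (0.88), B3gnt5 and Steap1 for Neurod4. Between the members themselves, r was 0.55 for Neurog1 and Neurog2, 0.41 for Neurog2 and Neurod1 and 0.40 for Neurod1 and Neurod4. It was 0.32 for Neurog2 and Neurod4, -0.09 for Neurog1 and Neurod1 and -0.07 for Neurog1 and Neurod4. The genes named first were picked as the highest of 13084, so their r cannot be compared with that between members chosen beforehand. These values describe 19 libraries that share groups and scaling.

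Markers of the cell types a culture could hold were read at their gene ends. Of all gene end peaks, 39.3% were lower at 24 h and 53.7% at 72 h than in NSPs. From 72 h to 1 week 54% of them were higher and 6.12% lower. The sums below are in the deposited scaling and are not corrected for these shifts. Of 5 markers of neural stem and progenitor cells 4 had a peak, Pax6 having none, and their sum was 3382 to 3768 in NSPs, 2303 to 2695 at 24 h, 2109 to 2573 at 72 h and 3247 to 3321 at 1 week. With TNF it was 2400.4 to 2508 at 24 h and 2541 to 2843 at 72 h. Of 6 neuronal markers 4 had a peak, Rbfox3 and Stmn2 having none. The neuronal sum was 1608 to 1968 in NSPs, 1464.5 to 1556 at 24 h, 1122 to 1272 at 72 h and 1383 to 1728 at 1 week, and with TNF 1384 to 1524.5 at 24 h and 1176 to 1333 at 72 h. Of the 6 astrocyte markers all had a peak, and 3 were higher and 2 lower at 1 week than in NSPs. The matching shares over all 13342 peaks at gene ends stood at 26.5% (higher) and 27.6% (lower). Gfap, the intermediate filament of astrocytes, had a mean of 108 in NSPs, 489 at 24 h, 529 at 72 h and 258 at 1 week. S100b had 562, 372, 282 and 178 in the same groups. From NSPs to 1 week the mean went from 251 to 330 for Slc1a3 and from 91.8 to 148 for Gja1. It went from 319 to 250 for Slc1a2 and from 89.3 to 68.1 for Aldh1l1. Summed over the astrocyte markers, the level was 1353 to 1506.5 in NSPs, 1404 to 1658 at 24 h, 1560.1 to 1671 at 72 h and 1161 to 1308 at 1 week, and with TNF 1148 to 1278 at 24 h and 1165 to 1237 at 72 h. Of 5 oligodendrocyte lineage markers 2 had a peak, Mog, Sox10 and Pdgfra having none, and their sum, mostly of Olig2, was 1436 to 1755 in NSPs and 511 to 578 at 1 week. Of 5 microglia markers 2 had a peak, Aif1, Cx3cr1 and Csf1r having none, with sums of 115 to 183 in NSPs and 53.0 to 74.0 at 1 week. The part of cell composition in the changes at the proneural genes was not tested.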

How the data were processed

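ATAC-seq was performed on 19 libraries in 6 groups, assigned from sample titles. The study's methods name FastQC for quality control, Trim Galore for trimming, Bowtie2 as aligner, samtools for discarding mitochondrial reads, MACS as peak caller, a blacklist filter and DiffBind. The submitters' processing notes name mm10. Tool versions, duplicate handling, the transposase shift and the normalisation are not given in the sources used here. The deposited table holds a normalised signal per peak and library. In each library 100% of values were whole multiples of its lowest value (tolerance 0.01), so the table kept reads divided by a size factor, and depth above is the sum of those reads. Whether a recovered read is an independent fragment is not known. Unshifted reads would displace cuts by a few bases within 500 bp peaks.

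All 19 libraries entered 1 limma-trend fit of log2(value + 1) on the 6 group means (R 4.3.3, limma 3.58.1). The test planned for whole counts was kept as an alternative, because the values are normalised. edgeR's filterByExpr (minimum count 10) kept 88919 peaks and dropped 1235. P-values were two-sided and Benjamini-Hochberg adjusted over the peaks kept. The fit was also run on simulated data in which few peaks changed. That run does not show how the fit behaves where many peaks change, as here. Fold differences on this scale understate the change of low peaks. Alternatives were equal totals, TMM, loess offsets, edgeR 4.0.16, DESeq2 1.42.0, a pseudocount of 8, no filter, the compared groups alone, a replicate block, a window of 10 kb and leaving out each library.

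Every value per library was given for peaks within 1 kb of an end of a member, the 3 strongest peaks of each member and the called peak with the smallest p in each comparison. Other peaks were given by range or group means. The members, lists and tests were chosen with earlier results of these data known. Exons were not assigned, and the sequence of the Neurog2 window was not printed. A gene of the list of related factors is not reported here, and the counts of that list leave it out.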

Additional observations from a re-analysis of the deposited data

Results flagged for a closer look

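At the Neurog2 peak 6.8 kb upstream, 1 week replicate 4 (6.43 normalised reads, 6 reads) lay below the other 3 libraries of its group (15.4 to 17.1). In log2(value + 1) the gap was 0.887 of the group's range. At the Neurod4 promoter peak, 1 week replicate 2 (161) lay above the other 3 (94.6 to 101), with a gap of 0.887 of the range on the same log2 scale. A gap past the 95% critical value of Dixon's test arises by chance in about 1 in 20 groups, and 18 peaks with a group of 4 libraries were looked at.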

How the results depend on the processing

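Of 44 calls at the 18 peaks, 27 were kept under all 29 alternatives and 0 reversed, and 10 of the 100 tests without a call were called under some alternative. Equal totals gave 6 calls at 72 h against NSPs (11 in the deposited scaling). Of these 6, 5 were lower and 1 higher, with 20.8% and 36.7% of all peaks. Loess offsets gave 5 at 1 week against 72 h (9), 4 lower and 1 higher, with 11.6% and 13% of all peaks. In the deposited scaling 16.2% of all peaks were lower and 22.5% higher there, so calls became fewer over all peaks too. The 10 kb window gave 1 with TNF at 24 h (2). The groups compared alone gave 1 with TNF at 72 h (0), a lower one, with 8.64% of all peaks lower and 9.83% higher. Leaving out each library gave 5 to 7 calls at 24 h against NSPs, 3 to 4 at 72 h against 24 h, 9 to 12 at 72 h against NSPs, 4 to 9 at 1 week against 72 h, 12 to 13 at 1 week against NSPs, 1 to 2 with TNF at 24 h, 0 to 1 with TNF at 72 h and 0 for their difference. The shares of all peaks moved with the library left out too. Without 72 h replicate 3 they were 12.1% lower and 19.7% higher at 1 week against 72 h. The Neurog1 peak 24.1 kb beyond the 3′ end reversed at 72 h against NSPs, from -0.01 to 0.26 (adjusted p = 0.0322) with equal totals and 0.22 (adjusted p = 0.0499) with loess offsets. The causes were not tested. Of 45 pairs of libraries with the same title number, 1 had deviations correlated above 0.1 (lowest -0.04, highest 0.11). Such weak correlations cannot tell whether libraries with the same number share a culture or animal. The replicate block by title number gave 6, 3, 11, 8, 13, 2, 0 and 0 calls in the order above. With it, 14.4% of all peaks were lower and 20.8% higher at 1 week against 72 h. The replicate block by the numbers in the descriptions, chosen after seeing the data, gave 9 at 1 week against 72 h. There 15.2% of all peaks were lower and 21.5% higher. Depth limits the weakest peaks, with 2 to 5 reads at 1 week.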
